A study of Mus musculus with 24 samples.

Results

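Aminoacyl-tRNA synthetases were followed by their mRNA levels in mouse dendritic cells grown from bone marrow. The set holds 36 genes, taken by name from the deposited table of 38887 genes: 20 whose products work in the cytosol and 16 whose symbols end in 2 and whose products work in mitochondria. All 36 were among the 14188 genes with enough counts to be tested, so no member was lost to the filter. The labels give 2 IRE1α genotypes, wild type (WT) and knockout (KO), and 3 conditions, no treatment, zymosan and lipopolysaccharide (LPS). Each of the 6 combinations has 4 samples, 24 libraries in all. Zymosan is a yeast cell wall preparation, LPS is a bacterial cell wall component, and IRE1α is an endoplasmic reticulum stress sensor encoded by Ern1 that splices Xbp1 mRNA. Mouse strain, age, the cells in which IRE1α was removed, doses and times are not given in the sources used here. The labels also do not say whether replicates came from separate mice or cultures, so p-values measure the spread between these samples, which may be technical.

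Each aminoacyl-tRNA synthetase joins 1 kind of amino acid to its tRNA and so supplies the ribosome with charged tRNA. Cytosolic and mitochondrial protein synthesis use separate tRNA pools, and for most amino acids separate nuclear genes encode the enzymes of each compartment. Gars and Kars are exceptions whose genes give both forms, Eprs joins 2 activities in a single chain, and phenylalanyl-tRNA synthetase is built from the products of Farsa and Farsb. Several cytosolic enzymes sit together in a multi-synthetase complex held by the scaffold proteins AIMP1, AIMP2 and EEF1E1. The transcription factor ATF4, which cells make during amino acid shortage and endoplasmic reticulum stress, is known to bind C/EBP-ATF elements near many cytosolic synthetase genes, and Wars is a known interferon-inducible gene.

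Promoter sequence was available for 27 of the 36 genes in RefSeq (GRCm38.p6, 250 bases before to 50 bases after each start). Of the genes with an entry, 13 were cytosolic and 14 mitochondrial. No entry was found for Cars, Hars, Lars, Nars, Rars, Vars, Wars, Hars2 and Pars2. Those genes were not searched for any motif. The core of the C/EBP-ATF element, TGATGNAA, was searched on both strands. It stood in 5 of 13 cytosolic windows (Aars, Gars, Iars, Tars and Yars) and in 0 of 14 mitochondrial ones, beside 3.97% of 32851 windows of all genes. A match is shown for each of these genes because they take part in the comparisons below. Capitals mark the match, which is printed as its reverse complement where it lies on the other strand. Positions count from the RefSeq start as base 1, and the base before it is -1.
Aars, match at 10, chr8:111033840-111033869, plus strand: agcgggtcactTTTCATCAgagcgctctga
Gars, match at -30, chr6:55037960-55037989, plus strand: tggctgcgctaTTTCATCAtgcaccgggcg
Iars, match at 8, chr13:49682126-49682155, plus strand: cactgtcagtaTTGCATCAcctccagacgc
Tars, match at -15, chr15:11399655-11399684, minus strand: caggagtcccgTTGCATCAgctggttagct
Yars, match at 4, chr4:129189895-129189924, plus strand: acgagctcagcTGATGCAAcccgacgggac

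The E-box CACGTG was found in 4 of 13 cytosolic windows (Aars, Farsb, Iars and Tars) and in 1 of 14 mitochondrial windows (Ears2), beside 7.15% of all windows. The interferon-γ-activated-site pattern TTCNNNGAA was found for Aars and Kars, 2 of 13, and for Nars2, 1 of 14, beside 8.30% of all windows. The XBP1 core TGACGTGG was found in 0 of 13 and 0 of 14 windows, beside 0.676% of all windows. No match of 1 motif overlapped a match of another. Upstream stretches are shown for Iars and Farsb, the cytosolic genes that fell most after stimulation in WT cells, with the E-box in capitals, and for Mars2, the mitochondrial gene that fell most in WT cells, which held none of these motifs.
Iars, chr13:49681880-49682099, plus strand: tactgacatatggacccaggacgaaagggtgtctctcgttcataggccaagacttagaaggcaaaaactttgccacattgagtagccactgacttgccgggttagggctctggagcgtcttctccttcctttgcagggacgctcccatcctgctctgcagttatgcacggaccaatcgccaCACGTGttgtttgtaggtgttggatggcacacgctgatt
Farsb, chr1:78488898-78489147, minus strand: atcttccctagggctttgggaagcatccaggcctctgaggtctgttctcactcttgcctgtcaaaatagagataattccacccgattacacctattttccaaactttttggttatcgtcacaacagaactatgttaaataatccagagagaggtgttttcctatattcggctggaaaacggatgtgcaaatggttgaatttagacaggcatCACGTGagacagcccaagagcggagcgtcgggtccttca
Mars2, chr1:55236927-55237176, plus strand: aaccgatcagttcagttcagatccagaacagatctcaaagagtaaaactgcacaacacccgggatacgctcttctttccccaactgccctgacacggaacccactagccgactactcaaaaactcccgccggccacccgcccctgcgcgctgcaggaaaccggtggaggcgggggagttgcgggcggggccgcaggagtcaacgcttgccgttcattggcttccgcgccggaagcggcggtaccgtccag

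Library totals were 32223256 to 46927434 counts, and member counts per library ran from 32 (Mars2) to 7430. Levels are given in CPM, counts relative to library totals scaled by the trimmed mean of M values. Libraries labelled KO did not have less Ern1 mRNA than WT ones (48.2 to 54.6 against 40.2 to 43.3 CPM without stimulus), and a count over the whole gene does not test a deletion of part of it, so those samples are called labelled KO. Of 18 listed XBP1s target genes, 17 were lower in labelled KO samples in each of the 3 conditions. Of all genes tested, 5.57%, 11.3% and 18.2% were lower without a stimulus, with zymosan and with LPS. As a check of the labelled cell type, 9 conventional dendritic cell genes summed to 4935 to 7546 CPM, and 7 lymphocyte genes to at most 2.91 CPM. Markers of other myeloid cells were present as well, with sums of 1760 to 2835 CPM for 10 neutrophil genes and 1345 to 1907 CPM for 6 macrophage genes. In 5 of the 6 groups replicates 1 and 2 resembled each other, and 3 and 4 each other, more than the rest. The exception was WT with LPS, where replicates 2 and 3 (chi-square per gene 6.26) were closer than 3 and 4 (7.62). The chi-square per gene was 1.87 to 7.62 in those 12 pairs and 6.26 to 22.9 in the other 24. All tests were run again on the summed counts of each such pair, and that setting is given beside the named results whose call it ended.

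Cytosolic synthetase mRNAs were the more abundant set. In untreated WT cells the median level of the 20 cytosolic genes was 13.0 CPM per kilobase of exon, with a range from 3.61 (Cars) to 27.7 (Nars). The median of the 16 mitochondrial genes was 1.23 CPM per kilobase, from 0.343 (Mars2) to 8.48 (Iars2). Iars2 and Rars2 (6.67 CPM per kilobase) were the mitochondrial genes that reached into the cytosolic range, and Hars2 followed at 3.24. With the length of the longest transcript in place of all exon bases, the medians were 20.1 and 2.22 CPM per kilobase. For 13 amino acids both a cytosolic gene and its namesake ending in 2 are in the set, and the cytosolic gene was the higher per kilobase in 13 of 13 pairs in untreated WT cells, 12 of 13 with zymosan and 11 of 13 with LPS.

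**Figure D1:**
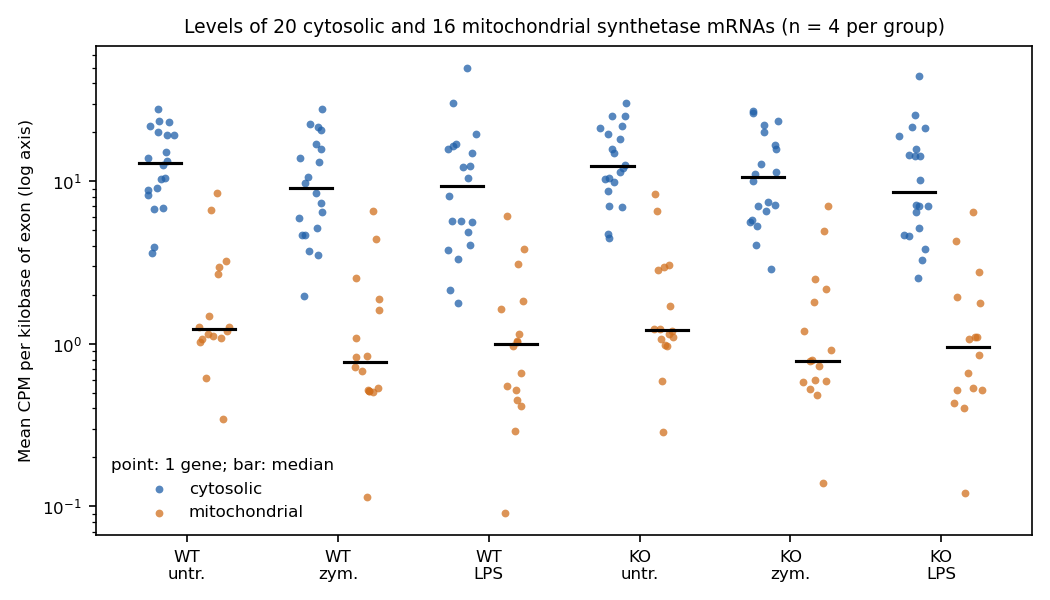
Mean level of each synthetase mRNA in each group, in CPM per kilobase of exon on a log axis (1 point per gene, bar at the median, n = 4 samples per group). The cytosolic median of 13.0 in untreated WT cells lies above the mitochondrial median of 1.23, and the top cytosolic gene with LPS is Wars at 49.9.

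Summed over the set, cytosolic synthetase mRNA was 1300 ± 6.61 CPM in untreated WT cells, 1041 ± 21.8 with zymosan and 1096 ± 10.5 with LPS (SD, n = 4 each). Mitochondrial synthetase mRNA was 207 ± 3.44, 138 ± 2.49 and 134 ± 1.17 CPM in the same groups. The 4 samples of each stimulated group lay below those of the untreated group in both sets. The scaling factors were 1.16 to 1.19 in untreated WT libraries and 0.880 to 0.928 in stimulated WT ones. These sums are thus levels relative to scaled library totals and not shares of all mRNA. Relative to unscaled totals both sets fell further. In bulk cultures fewer cells of a type and less RNA per cell cannot be told apart.

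In scaled CPM, zymosan and LPS in WT cells lowered most synthetase mRNAs and raised a few cytosolic ones. With zymosan, 3 of 20 cytosolic genes rose and 14 fell, and 0 of 16 mitochondrial genes rose and 15 fell (edgeR quasi-likelihood test, adjusted p under 0.05). Of all genes tested, 34.2% were called higher and 35.8% lower, so the share that fell in both sets was above this background. The median log2 difference was -0.44 for cytosolic genes, -0.60 for mitochondrial genes and -0.01 for all genes tested. With LPS, 5 of 20 cytosolic genes rose and 15 fell, and 0 of 16 mitochondrial genes rose and 11 fell, beside 35.8% called higher and 39.5% lower among all genes. The medians were -0.53, -0.69 and -0.04. Both comparisons use the same untreated samples. The sign of the smaller rises depends on the scaling. Relative to unscaled library totals, Aars and Rars with zymosan and Kars and Cars with LPS were on average lower than in untreated cells. Wars with each stimulus, and Aars and Rars with LPS, were higher either way. No alternative setting used unscaled totals.

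Wars, which charges tryptophan tRNA (ENSMUSG00000021266, chromosome 12, 108860030 to 108894174, minus strand, GRCm38), rose the most. Its levels in untreated WT cells were 53.4, 50.2, 52.5 and 52.5 CPM. They were 89.1, 100, 94.5 and 101 CPM with zymosan and 175, 164, 164 and 186 CPM with LPS. The 3 groups did not overlap, and every LPS sample was above every zymosan sample. Of all genes, 31.3% lay above and 32.7% below untreated samples without overlap with zymosan, and 34% and 37.3% with LPS. For zymosan against LPS these shares were 22.1% and 20.7%. A lack of overlap was thus common in these comparisons. The log2 difference from untreated cells was 0.88 ± 0.05 with zymosan, a 1.84-fold rise (SE, n = 4 per group, edgeR adjusted p = 6.41e-15). With LPS it was 1.72 ± 0.05, a 3.30-fold rise (edgeR adjusted p = 1.42e-21). Per kilobase, Wars ranked 8 of 36 in untreated cells and 1 of 36 with either stimulus. By longest-transcript length it ranked 11, 3 with zymosan and 1 with LPS. Of 16 listed interferon-stimulated genes, 15 rose with zymosan and 16 with LPS (median log2 4.47 and 5.50), beside 34.2% and 35.8% of all genes. With zymosan 16 of 16 were lower than with LPS, beside 21.6% of all genes. A link between these genes and the rise of Wars was not tested. Wars2, the mitochondrial tryptophan enzyme, differed from untreated cells by -0.24 ± 0.11 with zymosan and -0.16 with LPS, neither of which passed the test (edgeR adjusted p = 0.0503 with zymosan).

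Rars, the arginine enzyme and a member of the multi-synthetase complex, rose from 59.5, 61.4, 65.7 and 61.8 CPM to 74.1, 71.5, 71.4 and 74.0 CPM with zymosan. With LPS it reached 95.8, 97.0, 103 and 97.1 CPM, so the 3 groups again did not overlap. The log2 differences were 0.23 ± 0.06 and 0.66 ± 0.06 (edgeR adjusted p = 0.000901 and 3.46e-11). Aars, the alanine enzyme, went from 73.6 to 81.8 CPM untreated to 89.0 to 92.1 CPM with zymosan and 113 to 117 CPM with LPS. Its log2 differences were 0.23 ± 0.05 and 0.59 ± 0.05 (edgeR adjusted p = 0.000137 and 1.35e-11). Aars shares 1326 exon bases, 14.3% of its own, with Exosc6 on the same strand, so its counts may include reads of that gene.

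Kars, the lysine enzyme, and Cars, the cysteine enzyme, rose in scaled CPM with LPS and not with zymosan. Kars went from 60.9 to 62.2 CPM to 73.5 to 78.6 CPM with LPS (log2 0.30 ± 0.04, edgeR adjusted p = 3.55e-07) and was 56.9 to 61.1 CPM with zymosan (log2 -0.07). Cars differed by 0.16 ± 0.05 with LPS (edgeR adjusted p = 0.00728, or 0.0612 with replicate pairs summed, which ended the call), and by -0.04 with zymosan. The zymosan and LPS groups differed from each other for both genes (log2 -0.37 ± 0.04 for Kars and -0.20 ± 0.05 for Cars, edgeR adjusted p = 5.56e-08 and 0.00274). That call too ended for Cars with replicate pairs summed (edgeR adjusted p = 0.0586).

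**Figure D2:**
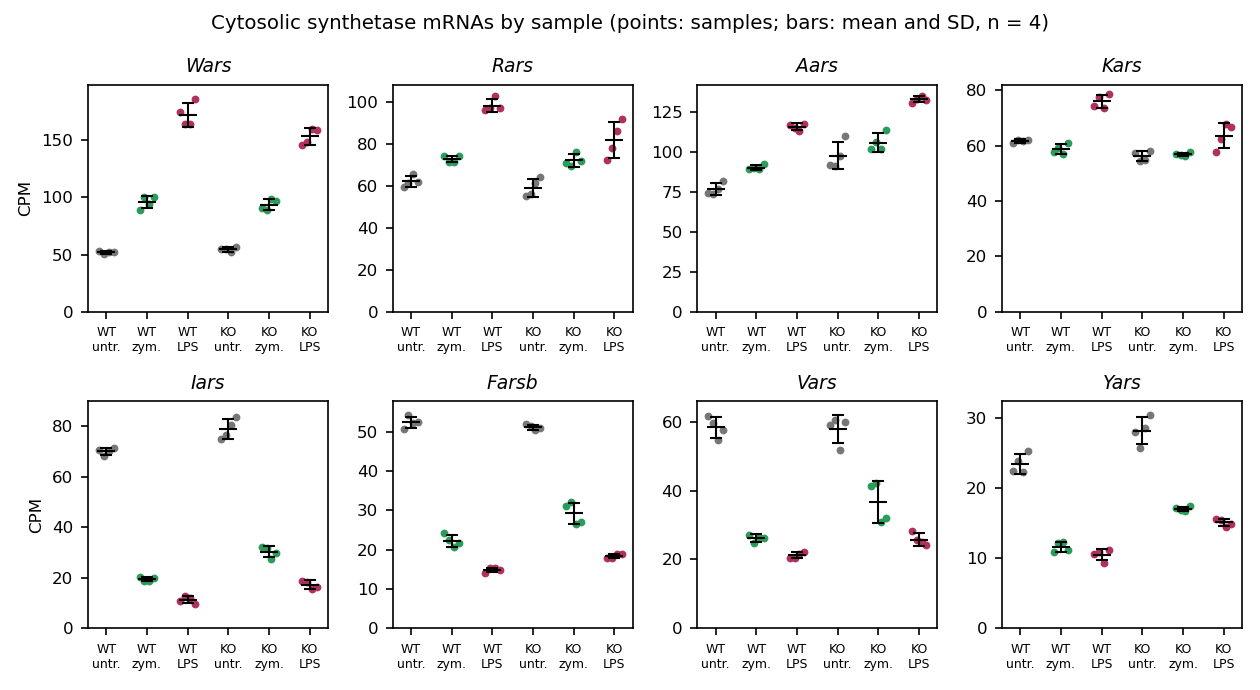
CPM of 8 cytosolic synthetase mRNAs in each of the 24 samples (points are samples, bars the mean and SD, n = 4 per group, axes from 0). Wars, Rars and Aars step up from untreated to zymosan to LPS, while Iars, Farsb, Vars and Yars step down and sit higher in the stimulated samples labelled KO than in the stimulated WT samples.

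Iars, the isoleucine enzyme (ENSMUSG00000037851, chromosome 13, 49682100 to 49734267, plus strand), fell more than any other of the 36 with each stimulus. It was at 70.6, 68.2, 70.4 and 71.4 CPM in untreated WT cells and at 20.4, 18.9, 18.7 and 19.9 CPM with zymosan. With LPS it was at 10.8, 13.0, 11.9 and 9.63 CPM. No stimulated sample came near an untreated one. The log2 difference was -1.85 ± 0.07 with zymosan, or 3.60-fold lower, and -2.63 ± 0.07 with LPS, or 6.19-fold lower (edgeR adjusted p = 3.96e-19 and 2.77e-22).

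Farsb encodes the β subunit of phenylalanyl-tRNA synthetase (ENSMUSG00000026245, chromosome 1, 78417975 to 78488897, minus strand). It went from 50.7, 54.1, 52.1 and 52.5 CPM to 24.1, 22.5, 20.7 and 21.6 CPM with zymosan, and to 14.2, 15.4, 15.2 and 14.9 CPM with LPS. Its log2 differences were -1.24 ± 0.05 and -1.81 ± 0.05 (edgeR adjusted p = 1.19e-17 and 2.48e-21). Farsa, which encodes the α subunit of the same enzyme, changed far less, by -0.27 ± 0.05 and -0.13 ± 0.05 (edgeR adjusted p = 6.93e-06 and 0.0117). The Farsa call with LPS ended with replicate pairs summed (edgeR adjusted p = 0.051). The mRNAs of the subunits of 1 enzyme thus had fitted changes of different size, and that difference was not tested. Farsb shares 248 exon bases, 9.47% of its own, with Sgpp2 on the opposite strand, and whether the counting used strand is not given in the sources used here.

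Vars, the valine enzyme, fell from 54.6 to 61.7 CPM to 24.7 to 27.2 CPM with zymosan and 20.5 to 22.3 CPM with LPS (log2 -1.16 ± 0.08 and -1.46 ± 0.08, edgeR adjusted p = 1.26e-12 and 9.28e-15). Yars, the tyrosine enzyme, fell from 22.3 to 25.3 CPM to 10.8 to 12.3 CPM and 9.37 to 11.2 CPM (log2 -1.01 ± 0.06 and -1.16 ± 0.06, edgeR adjusted p = 1.91e-14 and 6.78e-16). Neither gene had a stimulated WT sample within its untreated range. Eprs, the bifunctional glutamate and proline enzyme, fell by 0.55 ± 0.05 with zymosan and by 1.05 ± 0.05 with LPS on the log2 scale. Mars1, the methionine enzyme, fell by 0.81 ± 0.06 and 0.89 ± 0.06. Mars1 shares 68 exon bases with the stress gene Ddit3 on the opposite strand, and Ddit3 moved the other way (log2 0.73 and 1.04). The remaining cytosolic genes that fell did so by less than a log2 unit. Gars, Hars, Lars, Nars, Qars, Sars and Tars fell with both stimuli, by 0.25 (Qars) to 0.49 (Lars) with zymosan and 0.26 (Qars) to 0.67 (Lars) with LPS on the log2 scale. Dars, the aspartate enzyme, fell with LPS (log2 -0.55 ± 0.06, edgeR adjusted p = 3.39e-09) and did not pass with zymosan (log2 -0.09).

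Among mitochondrial genes Mars2 fell the most in WT cells, and Iars2, the most abundant, fell by less. Mars2, mitochondrial methionyl-tRNA synthetase (ENSMUSG00000046994, chromosome 1, 55237177 to 55248470, plus strand), was at 3.92, 3.49, 4.01 and 4.08 CPM in untreated WT cells. It was at 0.993, 1.58, 1.38 and 1.21 CPM with zymosan and 0.958, 1.28, 0.984 and 0.898 CPM with LPS. Stimulated samples lay below all untreated ones and overlapped each other. The log2 differences were -1.58 ± 0.14 and -1.90 ± 0.15 (edgeR adjusted p = 1.62e-10 and 5.12e-12).

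Nars2, the mitochondrial asparagine enzyme, showed a graded fall, from 6.63 to 7.71 CPM to 3.46 to 4.09 CPM with zymosan and 1.77 to 2.38 CPM with LPS. Its log2 differences were -0.94 ± 0.11 and -1.81 ± 0.12 (edgeR adjusted p = 1.14e-08 and 6.05e-14), and the stimuli differed from each other by 0.88 ± 0.13 (edgeR adjusted p = 1.89e-06). Ears2, which attaches glutamate in mitochondria, fell by 1.17 ± 0.10 and 1.47 ± 0.10. Vars2 fell by 1.22 ± 0.09 and 1.41 ± 0.10, and Lars2, the leucine enzyme, by 1.15 ± 0.10 and 1.10 ± 0.10. All of these genes are low in these cells, under the cytosolic range per kilobase. Cars2, Fars2, Rars2, Tars2 and Yars2 fell by 0.46 (Fars2) to 0.88 (Cars2 and Tars2) with zymosan and 0.52 (Fars2) to 0.93 (Cars2) with LPS. Iars2 went from 75.1 to 75.6 CPM to 57.9 to 59.2 CPM and 52.7 to 56.3 CPM (log2 -0.36 ± 0.04 and -0.47 ± 0.04). Iars2 shares 2034 exon bases, 22.9% of its own, with Rab3gap2 on the opposite strand.

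Hars2, Aars2, Sars2 and Pars2 fell with zymosan but did not pass with LPS. Hars2 was at 13.4 to 14.2 CPM untreated, 10.2 to 12.0 CPM with zymosan and 12.8 to 13.7 CPM with LPS. Its log2 difference was -0.36 ± 0.05 with zymosan (edgeR adjusted p = 9.95e-07) and -0.06 with LPS, and zymosan was below LPS by 0.30 ± 0.05 (edgeR adjusted p = 5.51e-05). Aars2 and Sars2 had the same form: -0.59 and -0.58 with zymosan, -0.16 and -0.14 with LPS, and zymosan against LPS -0.44 for each (edgeR adjusted p = 0.000862 and 0.00282). Pars2 was called lower with zymosan (log2 -0.39 ± 0.12, edgeR adjusted p = 0.00566), and was not when replicate pairs were summed (adjusted p = 0.0533).

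**Figure D3:**
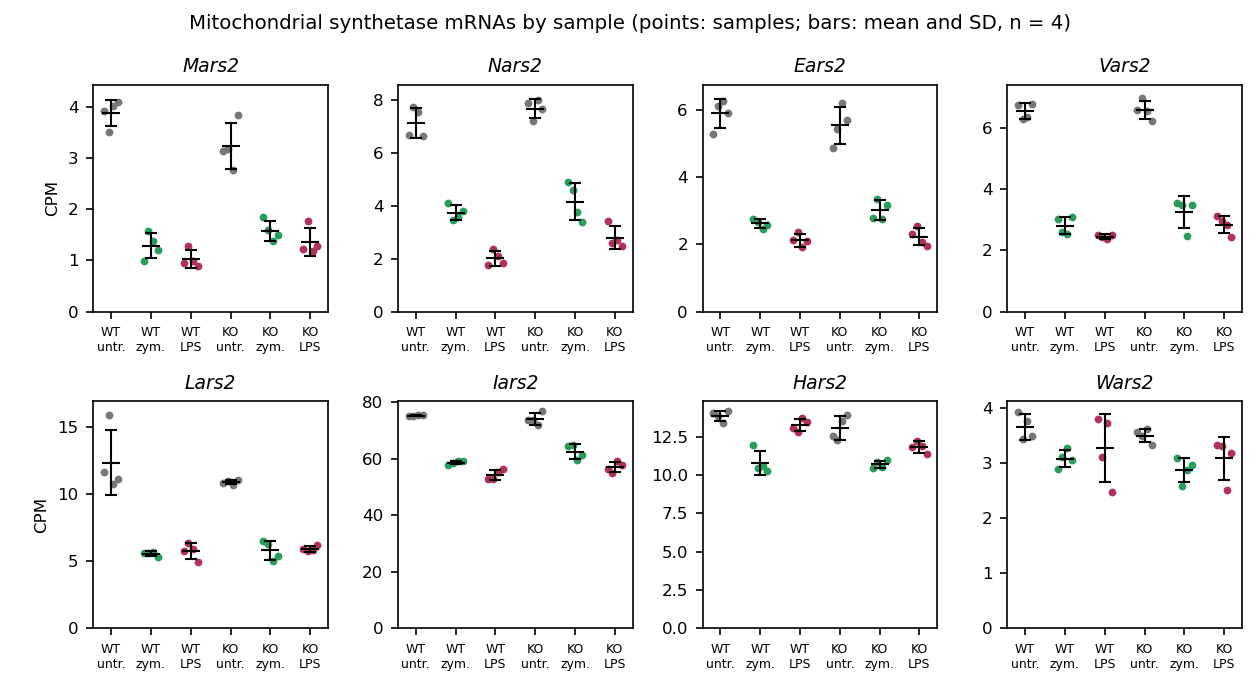
CPM of 8 mitochondrial synthetase mRNAs in each of the 24 samples (points are samples, bars the mean and SD, n = 4 per group, axes from 0). Mars2, Nars2, Ears2, Vars2 and Lars2 drop after both stimuli, Iars2 drops less, Hars2 drops more with zymosan than with LPS in WT cells, and Wars2 moves little.

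Set directly against each other in WT cells, zymosan and LPS differed for 13 of 20 cytosolic genes, 7 higher and 6 lower with zymosan, and for 8 of 16 mitochondrial genes, 4 in each direction. Among all genes tested, 24.4% were higher and 21.6% lower with zymosan. The genes higher with zymosan were ones that LPS lowered further, led by Nars2 and by Iars (log2 0.78 ± 0.07, edgeR adjusted p = 1.8e-09). Those lower with zymosan were led by Wars (log2 -0.84 ± 0.05, edgeR adjusted p = 2.73e-13). With replicate pairs summed, 13 members were called in this comparison in place of 21, beside 27.6% of all genes.

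The 13 pairs of namesakes moved differently for several amino acids. For isoleucine the cytosolic mRNA fell more with LPS (log2 -2.63 for Iars and -0.47 for Iars2). For valine both fell by like amounts (-1.46 for Vars and -1.41 for Vars2). For tryptophan, arginine, alanine and cysteine the cytosolic gene was called higher with LPS, while Rars2 (-0.80) and Cars2 (-0.93) were called lower and Wars2 and Aars2 did not pass. The cytosolic log2 difference was the higher of the pair in 10 of 13 pairs with zymosan and 8 of 13 with LPS. No test of the difference within a pair was made.

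**Figure D4:**
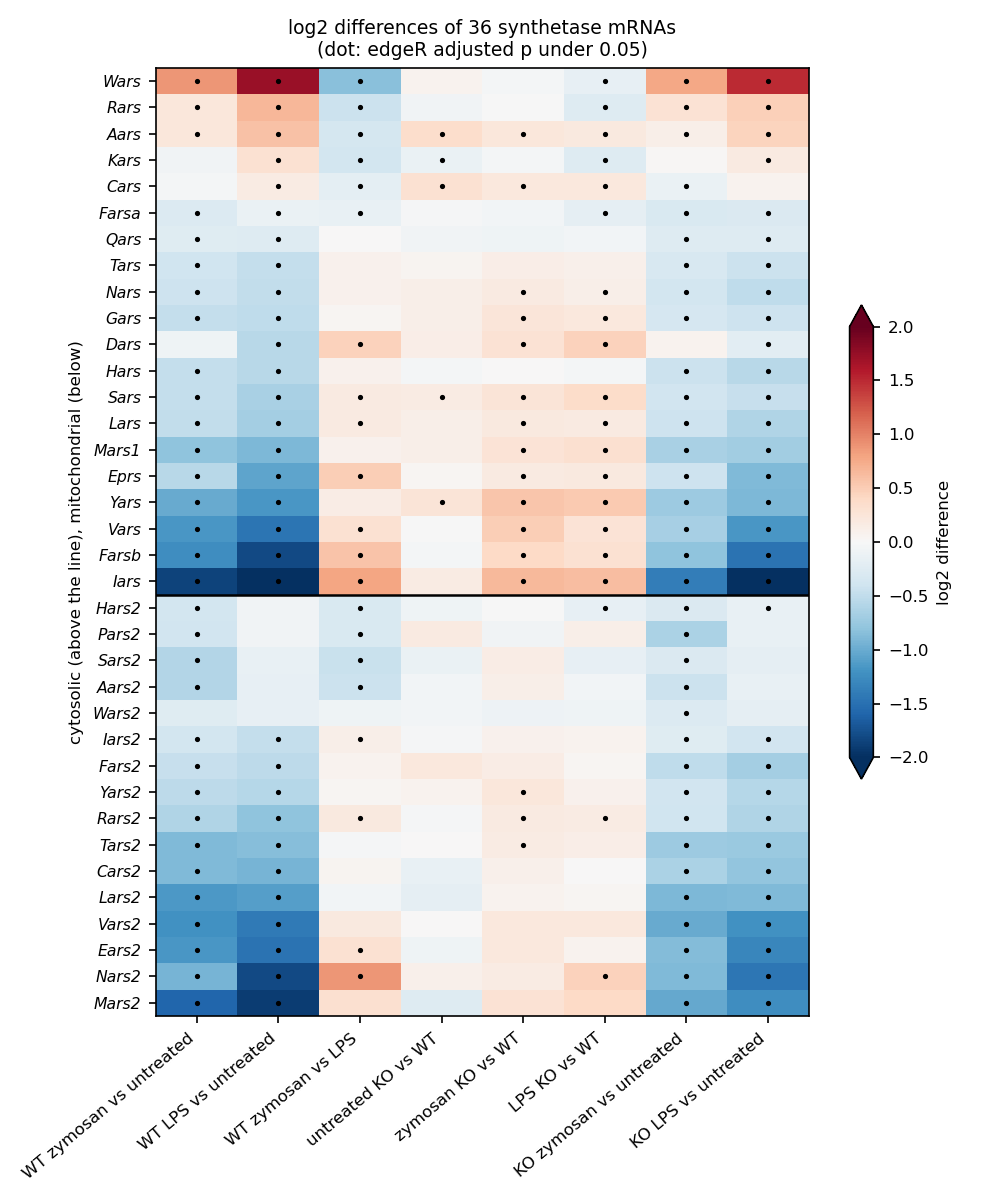
log2 differences of the 36 synthetase mRNAs in 8 comparisons (red higher, blue lower, colour limits at -2 and 2, a dot where the edgeR adjusted p is under 0.05). The first columns are mostly blue in WT cells apart from Wars, Rars and Aars, and Kars and Cars with LPS, and the columns of labelled KO against WT are pale red for many cytosolic genes after stimulation.

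Without a stimulus, samples labelled KO and WT differed in few synthetase mRNAs. Of 20 cytosolic genes, 4 were higher and 1 lower in labelled KO, and of 16 mitochondrial genes 0 were called in either direction, beside 4.25% higher and 5.57% lower among all genes. Aars was at 91.7, 91.2, 97.3 and 109 CPM in labelled KO samples against 74.3, 73.6, 76.8 and 81.8 CPM in WT, with no overlap (log2 0.35 ± 0.05, edgeR adjusted p = 8.73e-06). Without overlap, 6.97% of all genes were higher and 7.56% lower in labelled KO. Cars was at 27.8 to 31.2 CPM against 22.5 to 24.7 CPM (log2 0.31 ± 0.05, edgeR adjusted p = 0.00013). These 2 calls remained with replicate pairs summed (edgeR adjusted p = 0.016 for Aars and 0.0383 for Cars), where 2.77% of all genes were called. Yars (log2 0.26 ± 0.06), Sars (0.17 ± 0.04) and Kars (-0.13 ± 0.04) were called with all samples and not with pairs summed (edgeR adjusted p = 0.0651, 0.193 and 0.468).

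Marker genes of other cell types differed with the genotype label, and their part in the differences between labelled KO and WT was not tested. Among all genes, 4.25%, 10.5% and 15.5% were called higher in labelled KO in the untreated, zymosan and LPS comparisons. Those called lower were 5.57%, 11.3% and 18.2%. With replicate pairs summed, 2.77%, 6.36% and 12.7% were called in either direction. In lists this short, 1 or 2 called genes do not stand out from these shares. Eosinophil markers (8 genes, 7 tested) summed to 820 to 1251 CPM in WT samples and 47.4 to 61.9 CPM in labelled KO samples, with 6, 6 and 7 of 7 tested genes lower in the untreated, zymosan and LPS comparisons and none at 0. Macrophage genes were lower in labelled KO for 1, 2 and 6 of 6 in the same comparisons (0, 0 and 2 with replicate pairs summed), and with LPS their sum was 1345 to 1369 CPM against 1783 to 1898 CPM in WT. Neutrophil genes were lower for 4 of 10 in each comparison (1, 2 and 2 with pairs summed), and 4 were higher with LPS (0 with pairs summed). Conventional dendritic cell genes were higher for 5 of 9 in each comparison and lower for 1, 2 and 2. Without a stimulus their sum was 6018 to 6280 CPM in labelled KO and 4935 to 5160 CPM in WT, and with pairs summed 3 were higher there and 3 with LPS. Of 8 proliferation genes, 0 differed without a stimulus, while 6 were higher in labelled KO with zymosan and 6 higher and 1 lower with LPS (0 lower with pairs summed). Their summed level was 404 to 467 CPM in WT and 475 to 503 CPM in labelled KO samples with zymosan. With LPS it was 358 to 374 and 361 to 388 CPM. Proliferation genes also moved with the stimuli, from a sum of 502 to 514 CPM in untreated WT cells. In WT cells 6 of 8 fell and 1 rose with zymosan, beside 35.8% and 34.2% of all genes. With LPS 7 of 8 fell, beside 39.5%. What part this had in the fall of synthetase mRNAs was not tested.

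After zymosan, many cytosolic synthetase mRNAs were higher in samples labelled KO. Of 20 cytosolic genes 13 were higher and 0 lower, and of 16 mitochondrial genes 3 were higher and 0 lower, beside 10.5% higher and 11.3% lower among all genes. The medians were 0.21 for cytosolic, 0.15 for mitochondrial and -0.00 for all genes tested. With replicate pairs summed, 6 members were called, all cytosolic and higher: Farsb, Gars, Iars, Sars, Vars and Yars, beside 6.36% of all genes.

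Iars led these differences. In zymosan-treated samples it was at 32.1, 31.9, 27.5 and 29.8 CPM in labelled KO and at 20.4, 18.9, 18.7 and 19.9 CPM in WT, with no overlap. The log2 difference was 0.64 ± 0.07 (edgeR adjusted p = 7.29e-08). Without overlap, 9.78% of all genes were higher and 11% lower in labelled KO. Yars was at 17.2, 16.9, 16.8 and 17.5 CPM against 10.8, 12.2, 12.3 and 11.3 CPM (log2 0.55 ± 0.06, edgeR adjusted p = 1.62e-07). Both genes thus lay above WT in 4 of 4 labelled KO samples.

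Vars was at 41.4, 42.3, 30.8 and 31.9 CPM in labelled KO samples with zymosan and at 27.2, 24.7, 26.6 and 26.2 CPM in WT (log2 0.49 ± 0.08, edgeR adjusted p = 7.22e-05). Replicates 1 and 2 stood well above replicates 3 and 4, and the difference was 0.69 from the former and 0.25 from the latter alone. Farsb was at 26.6 to 32.1 CPM against 20.7 to 24.1 CPM (log2 0.40 ± 0.05, edgeR adjusted p = 3.28e-06). Sars, the serine enzyme, and Gars, the glycine enzyme, differed by 0.26 ± 0.04 and 0.25 ± 0.04. Dars (0.29), Mars1 (0.28), Aars (0.23), Cars (0.22), Lars (0.19), Eprs (0.18) and Nars (0.18) were called with all samples and not with pairs summed (edgeR adjusted p = 0.06 to 0.149). The mitochondrial calls, Yars2 (0.22), Rars2 (0.18) and Tars2 (0.17), ended the same way (edgeR adjusted p = 0.216 to 0.281) and also without any of several single libraries.

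After LPS, many cytosolic synthetase mRNAs were again higher in samples labelled KO. Of 20 cytosolic genes 13 were higher and 4 lower in labelled KO, and of 16 mitochondrial genes 2 were higher and 1 lower. Among all genes 15.5% were higher and 18.2% lower. The share of cytosolic genes that were lower was near that of all genes, and both mitochondrial shares were below it. With replicate pairs summed 9 members were called, beside 12.7% of all genes: Dars, Farsb, Gars, Iars, Mars1, Sars and Yars higher, Farsa and Kars lower. The medians were 0.20 for cytosolic, 0.07 for mitochondrial and 0.01 for all genes.

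Iars was at 18.9, 18.5, 15.5 and 16.4 CPM in labelled KO samples with LPS and at 10.8, 13.0, 11.9 and 9.63 CPM in WT (log2 0.61 ± 0.07, edgeR adjusted p = 3.8e-07). Yars was at 14.5 to 15.5 CPM against 9.37 to 11.2 CPM (log2 0.52 ± 0.06, edgeR adjusted p = 3.56e-07). Dars was at 89.2 to 101 CPM against 66.3 to 70.6 CPM (log2 0.46 ± 0.06, edgeR adjusted p = 1.33e-06). None of these groups overlapped. In this comparison 15.3% of all genes were higher and 19.1% lower in labelled KO without overlap. Sars (0.37 ± 0.04), Mars1 (0.33 ± 0.06), Farsb (0.30 ± 0.06) and Gars (0.21 ± 0.04) were also higher in labelled KO.

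The 4 cytosolic genes lower in labelled KO with LPS, a share near that of all genes, included ones called higher with LPS in WT. Kars was at 57.7, 62.4, 67.8 and 66.8 CPM in labelled KO and 74.3, 77.7, 73.5 and 78.6 CPM in WT (log2 -0.26 ± 0.04, edgeR adjusted p = 3.68e-05). Rars was at 72.3 to 91.8 CPM against 95.8 to 103 CPM, without overlap (log2 -0.26 ± 0.06, edgeR adjusted p = 0.000807), and its call ended with pairs summed (adjusted p = 0.0584). Wars was at 146, 148, 160 and 159 CPM against 175, 164, 164 and 186 CPM (log2 -0.17 ± 0.05, edgeR adjusted p = 0.00908). The Wars call ended with pairs summed (edgeR adjusted p = 0.107) and without replicate 4 of WT with LPS (0.0556). In the same comparison 9 of 16 interferon-stimulated genes were lower in labelled KO, beside 18.2% of all genes. With pairs summed 1 of 16 was lower, where 12.7% of all genes were called in either direction. A link to Wars was not tested.

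Farsa differed by -0.19 ± 0.05 with LPS (edgeR adjusted p = 0.00263). Aars, Cars, Eprs, Lars, Nars and Vars were higher by 0.11 (Nars) to 0.28 (Vars) with all samples and lost the call with pairs summed (edgeR adjusted p = 0.0516 to 0.309). The mitochondrial calls Nars2 (0.47 ± 0.13), Rars2 (0.17) and Hars2 (-0.17) also ended (edgeR adjusted p = 0.0593 to 0.189). Leaving out replicate 1 of labelled KO with LPS ended the calls of Vars (edgeR adjusted p = 0.0638) and Nars2 (0.0507). Of the cytosolic genes, Hars, Qars and Tars were not called in any of the 3 genotype comparisons.

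**Figure D5:**
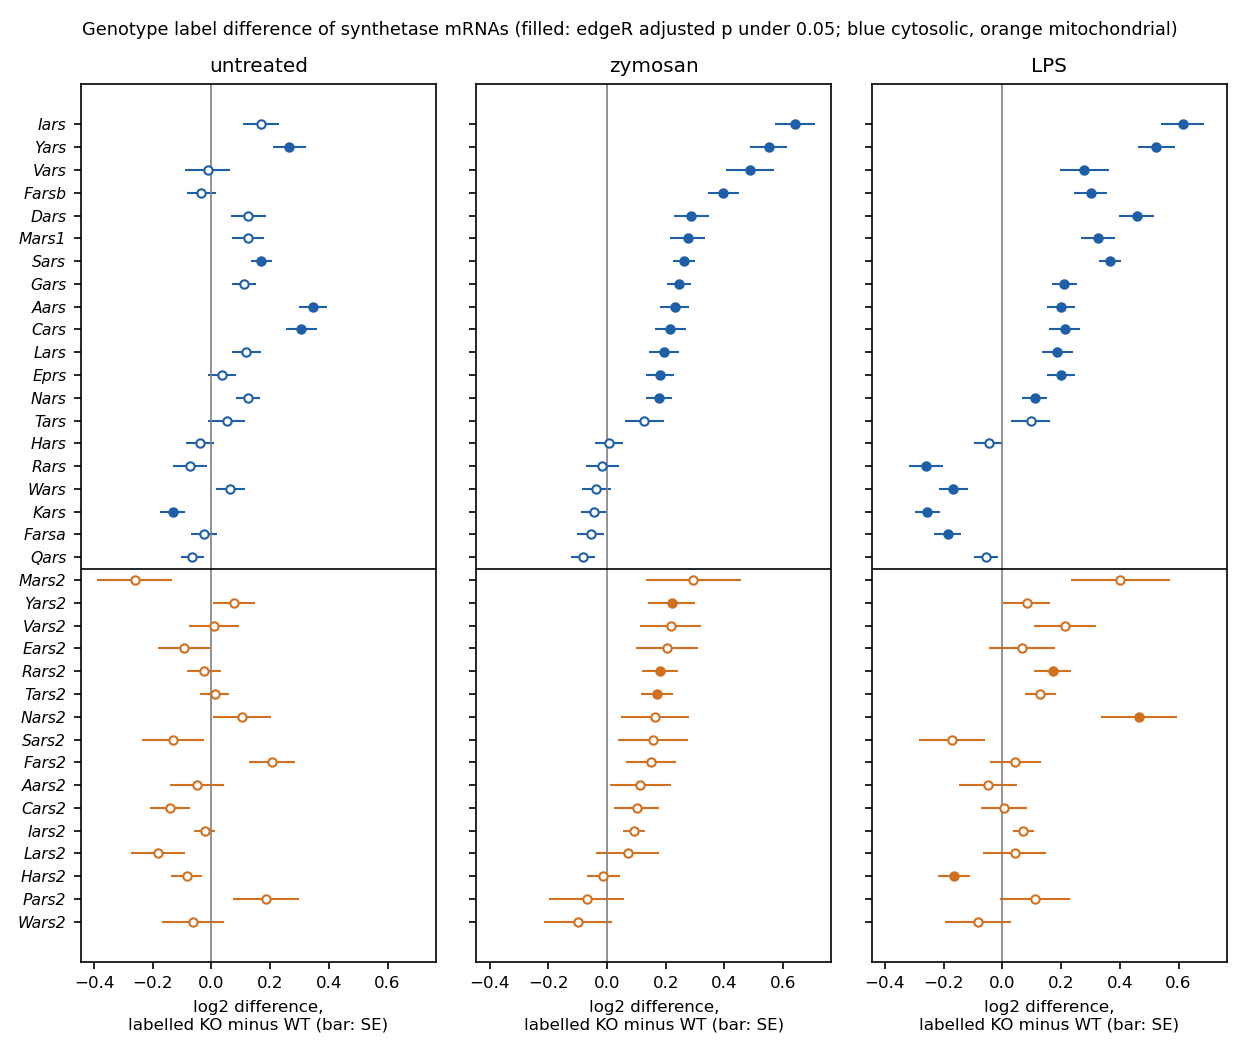
log2 difference of each synthetase mRNA, labelled KO minus WT, in untreated, zymosan and LPS samples (bars are SE, filled points have an edgeR adjusted p under 0.05, n = 4 per group). Most cytosolic points lie right of 0 after zymosan, led by Iars at 0.64, and after LPS Kars, Rars, Farsa and Wars lie left of 0.

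In samples labelled KO the stimuli moved the same set broadly as in WT. Zymosan against untreated gave 3 cytosolic genes higher and 15 lower, and 0 of 16 mitochondrial genes higher and 16 lower, beside 31.6% and 35.1% of all genes. LPS gave 4 cytosolic genes higher and 15 lower, and 0 mitochondrial genes higher and 12 lower, beside 34.4% and 37.3%. On summed replicate pairs, zymosan gave 2 cytosolic genes higher and 14 lower and 14 mitochondrial genes lower. The calls that ended were Aars, Cars, Sars2 and Wars2 (edgeR adjusted p = 0.174, 0.151, 0.101 and 0.0692). For LPS the call of Hars2 ended (edgeR adjusted p = 0.12), which left 11 mitochondrial genes lower. Wars rose by 0.78 ± 0.05 and 1.49 ± 0.05 on the log2 scale, and Iars fell by 1.38 ± 0.07 and 2.19 ± 0.07. These comparisons share the stimulated samples with the genotype comparisons above.

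Whether the response itself differed by genotype label was tested as an interaction. For zymosan, 3 of 20 cytosolic genes had a response called higher (less negative) in labelled KO and 0 called lower, with 0 of 16 mitochondrial genes, beside 1.01% higher and 0.86% lower among all genes. They were Farsb (0.43 ± 0.07), Iars (0.47 ± 0.09) and Vars (0.50 ± 0.11), with edgeR adjusted p = 0.00229, 0.00665 and 0.0166. For LPS, 5 cytosolic genes and 1 mitochondrial gene were called higher and 1 cytosolic gene lower, beside 4.54% and 5.68%. These were Iars (0.44 ± 0.10), Dars (0.33 ± 0.08), Farsb (0.33 ± 0.08), Yars (0.26 ± 0.08), Sars (0.20 ± 0.05) and Mars2 (0.66 ± 0.21), and Wars (-0.23 ± 0.07) in the other direction, with edgeR adjusted p from 0.00398 (Iars) to 0.0488 (Yars).

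For LPS, the 1 mitochondrial gene called higher (Mars2) and the 1 cytosolic gene called lower (Wars) were shares near those of all genes. The genotype differences of Mars2 were -0.26 without a stimulus and 0.40 with LPS, and neither was called. No interaction of a synthetase gene was called with replicate pairs summed, where 0% of all genes were called for zymosan and 0.052% for LPS. The edgeR adjusted p values were then 0.544 (Farsb and Iars) and 0.69 (Vars) for zymosan and 0.202 (Iars) to 0.376 (Sars) for LPS. For zymosan the Vars interaction was 0.71 from replicates 1 and 2 and 0.25 from replicates 3 and 4.

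Most scaffold, elongation factor and accessory genes around the synthetases fell in WT cells. For this and the next paragraph, 34.2% of all genes were called higher and 35.8% lower with zymosan. With LPS these shares were 35.8% and 39.5%. Of 7 scaffold and elongation factor partners, 0 rose and 6 fell with zymosan (median log2 -0.57) and 0 rose and 5 fell with LPS (-0.74). Eef1g, an elongation factor 1 subunit, fell by 0.81 and 1.27, the scaffold gene Eef1e1 by 0.77 and 1.17, and Aimp2 by 0.57 and 0.74. Within the cytosolic set, 8 genes of the multi-synthetase complex (Dars, Eprs, Iars, Kars, Lars, Mars1, Qars and Rars) had medians of -0.37 and -0.61, and the 12 others -0.44 and -0.50. Rars and Iars, both in the complex, bounded its range with LPS, from -2.63 to 0.66.

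Of 14 accessory genes of tRNA charging and editing, 1 rose and 13 fell with zymosan, and 1 rose and 12 fell with LPS. The 1 that rose was no longer called with either stimulus when replicate pairs were summed. Tarsl2, a threonyl-tRNA synthetase-like gene, fell by 1.49 and 1.91. Gatb encodes a subunit of the enzyme that makes glutaminyl-tRNA in mitochondria, and it fell by 1.11 with LPS. It was higher in labelled KO by 0.39 with zymosan and 0.33 with LPS. Genes of mitochondrial gene expression beyond the synthetases mostly fell too. Of 13 listed genes of mitochondrial translation, RNA handling and transcription, 1 rose and 9 fell with zymosan and 3 rose and 7 fell with LPS. The falls were led by the RNA-binding gene Lrpprc (-1.28 and -1.95). Of 77 mitochondrial ribosomal protein genes, 13 rose and 51 fell with zymosan (median -0.25) and 19 rose and 46 fell with LPS (median -0.24), a smaller median fall than the -0.60 and -0.69 of mitochondrial synthetases. Of 52 cytosolic initiation factor genes, 13 rose and 24 fell with zymosan (median -0.09), and 14 rose and 30 fell with LPS (median -0.22). Their zymosan median was nearer to that of all genes (-0.01) than the median of the mitochondrial ribosomal protein genes was.

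Genes of the amino acid response outside the synthetases differed by genotype label without a stimulus as well as with one. Of 30 such genes, 11 were higher and 0 lower in labelled KO without a stimulus, beside 4.25% and 5.57% of all genes. With zymosan 14 were higher and 1 lower, beside 10.5% and 11.3%. With LPS 13 were higher and 4 lower, beside 15.5% and 18.2%. With replicate pairs summed, 6 were higher without a stimulus and 9 with zymosan. With LPS 1 was lower, and the number higher stayed within 1.5 times of 13. In that setting 2.77%, 6.36% and 12.7% of all genes were called in either direction in the untreated, zymosan and LPS comparisons. Asns, asparagine synthetase and a classic ATF4 target, was higher by 1.14 ± 0.07, 1.23 ± 0.07 and 1.47 ± 0.07 on the log2 scale (edgeR adjusted p = 7.62e-13, 4.3e-13 and 1.24e-14). Cth, a cysteine-making enzyme, was higher by 2.18 ± 0.32, 1.90 ± 0.31 and 1.90 ± 0.32. In WT cells the list moved both ways. With zymosan 10 genes were up and 12 down, beside 34.2% and 35.8% of all genes. With LPS 8 were up and 16 down, beside 35.8% and 39.5%.

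Of the 5 genes with a TGATGNAA match in the windows shown above, Aars and Yars were called higher in labelled KO in all 3 conditions. Gars and Iars were called with zymosan and LPS and Tars in none (log2 0.05, 0.13 and 0.10). Among the cytosolic genes with an entry but without a match, Sars was called higher in all 3 conditions and Dars, Eprs, Farsb and Mars1 with both stimuli. Farsa, Kars and Qars were called higher in none. On summed replicate pairs, Aars kept the call only without a stimulus and Yars and Sars only with the stimuli. Gars, Iars and Farsb kept both of theirs, Dars and Mars1 only that with LPS, and Eprs neither. In WT cells the 5 genes with a match did not move together. In scaled CPM, Aars rose and Gars, Iars, Tars and Yars fell with each stimulus.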

How the data were processed

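Messenger RNA of 24 samples was sequenced, and the deposited table holds 1 whole-number count per gene and sample. Per the submitters' processing notes, the authors used Bowtie2, RSEM 1.2.31 and DESeq2 with build mm10, in roles not given. RSEM shares reads between like genes, and the counting strand is not given in the sources used here. GENCODE M21 (GRCm38) named 37570 of 38887 identifiers (96.6%).

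One edgeR 4.0.16 quasi-likelihood model (R 4.3.3, limma 3.58.1) gave each group its own mean over the 24 samples after filterByExpr (14188 genes) and TMM scaling (factors 0.880 to 1.19, common biological coefficient of variation 0.0686). The 10 contrasts were adjusted by Benjamini-Hochberg over all genes tested and called under 0.05. Values are log2 differences ± SE. Set and list counts have no test. Members, lists and tests were chosen with earlier results of these data known. Every member may be named, and up to 3 called genes with the largest change from each other list. Genes sharing exons with a member, and Ern1, are named besides. The 8 complex genes were listed with values known.

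Alternatives were DESeq2 1.42.0, its size factors, no filter, only the groups compared, replicate blocks, replicate pairs summed or alone, and each library left out. The procedure was tested on simulated data. One promoter sequence is not reported here.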

Additional observations from a re-analysis of the deposited data

Results flagged for a closer look

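In 216 groups of 4 samples (36 genes in 6 groups), a gap test flagged 5 samples that stood apart from the other 3. By chance about 5% of groups would be flagged, so 5 of 216 were fewer than that. The ratio of the gap to the whole range was 0.926 for Gars in replicate 1 of labelled KO with LPS (57.2 CPM against 59.8 to 60.0) and 0.846 for Fars2 in replicate 1 of WT with zymosan (7.22 against 5.82 to 6.04 CPM). It was 0.839 for Mars2 in replicate 2 of labelled KO with LPS (1.77 against 1.18 to 1.27 CPM). It was 0.966 for Tars2 in replicate 4 of untreated labelled KO (21.2 against 20.4 to 20.5 CPM) and 0.953 for Vars2 in replicate 3 of labelled KO with zymosan (2.47 against 3.48 to 3.53 CPM).

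The response to a stimulus differed between genotype labels, by the test of the interaction, for Farsb (0.43), Iars (0.47) and Vars (0.50) with zymosan. With LPS it differed for Dars (0.33), Farsb (0.33), Iars (0.44), Sars (0.20), Wars (-0.23), Yars (0.26) and Mars2 (0.66), all in log2. None of these 10 was called with replicate pairs summed.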

How the results depend on the processing

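With replicate pairs summed, the members called were 13 of 36 for WT zymosan against LPS (21 with all samples), 2 (5) for labelled KO against WT without a stimulus, 6 (16) with zymosan and 9 (20) with LPS, and 0 (3) and 0 (7) for the zymosan and LPS interactions. From replicates 3 and 4 alone they were 13 for zymosan against LPS, 1 for the zymosan interaction and 3 for the LPS interaction, and from replicates 1 and 2 alone 7 for the zymosan interaction. Without a filter on low counts the LPS interaction had 3. With replicate number as a block nested in genotype label it had 11. Replicate number as a block left every other count within 1.5 times, for example 33 for WT zymosan, 16 for labelled KO against WT with zymosan and 10 for the LPS interaction. Same-numbered samples of different groups correlated at -0.115 to 0.247 (median 0.0427) and differently numbered ones at -0.247 to 0.296 (median -0.0184). Within a genotype label the median of same-numbered samples was 0.0685. The numbers were not taken as pairs in the main model. Differently numbered samples include 1 with 2 and 3 with 4. A difference of replicates 1 and 2 from 3 and 4 shared across groups was thus not tested. Over all genes the block raised the calls. For labelled KO against WT without a stimulus they went from 1393 to 1816, and for the LPS interaction from 1450 to 2372. The LPS interaction had 2517 with the nested block, 1097 without the filter and 1759 from replicates 3 and 4 alone. The zymosan interaction went from 266 to 1358 over all genes from replicates 1 and 2 alone, and to 264 from 3 and 4 alone. Zymosan against LPS went from 6525 to 6293 over all genes from replicates 3 and 4 alone. Leaving out 1 library gave 32 to 33 members for WT zymosan, 31 to 32 for WT LPS and 19 to 21 for zymosan against LPS. For labelled KO against WT it gave 4 to 6, 13 to 18 and 17 to 20, for the responses in labelled KO 30 to 34 and 30 to 31, and for the interactions 3 to 4 and 4 to 7. Over all genes, leaving out 1 library gave 1045 to 1345, 2291 to 3128 and 4041 to 4532 calls for labelled KO against WT. For the interactions it gave 133 to 358 and 985 to 1567. With longest-transcript lengths the level medians were 20.1 and 2.22 CPM per kilobase. The sign turned for values that were not called: with LPS in WT, Aars2 to 0.0645 (replicates 1 and 2 alone) and Pars2 to 0.0628 (3 and 4 alone). Without a stimulus, the genotype difference of Vars was -0.0433 to 0.0375 with 1 library left out. With zymosan, that of Rars turned to 0.0265 (replicates 3 and 4 alone) and was -0.0427 to 0.0015 with 1 library left out, and that of Wars to 0.0046 (3 and 4 alone). The causes were not tested. The lowest member count, 32 for Mars2, limits that gene most.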
